A study of Mus musculus with 10 samples.

Results

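The genes described here mark surface and olfactory epithelium, the sheets of cells that cover the embryonic head and line the nasal pit. They were chosen by name, as 10 symbols, of which 9 have a row among the 14796 named genes of the deposited table: Cdh1, Krt8, Krt18, Krt5, Krt14, Krt15, Trp63, Grhl3 and Esrp1. Epcam, the other symbol, has no row in the table used here and was dropped. RNA sequencing was done on total RNA of mouse telencephalon, from which the cerebral hemispheres develop, at embryonic day 12. Of 10 samples, 2 carried a null allele of Polr1a, 3 carried a missense allele of Polr1a that changes the protein at C1559F, and 5 were wild type. Polr1a codes for the largest protein of RNA polymerase I, whose product is the precursor of ribosomal RNA. The titles of null 1 and 2 and wild types 1 and 2 start with Polr_2048, here the null set, and those of missense 1 to 3 and wild types 3 to 5 start with Polr_2138, here the missense set. Mutants were set against wild types that share their title number. The labels do not give the zygosity, what the title numbers stand for, or whether a sample is 1 embryo or a pool, so p-values measure only the spread between these samples.

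Epithelial cells hold together through cadherin junctions and are stiffened by keratin filaments, each built from a type I and a type II keratin in pairs. Simple epithelia pair Krt8 with Krt18, and the basal layer of stratified epithelia pairs Krt5 with Krt14 under the control of the transcription factor p63, which Trp63 encodes. In the olfactory epithelium Krt5, Krt14 and Trp63 mark horizontal basal cells, which form late in development. Neural progenitors of the telencephalon use N-cadherin in place of the E-cadherin encoded by Cdh1, so the listed genes mark cells around the brain more than cells of its wall.

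All 9 genes had values above the lowest value of the table in every sample, so transcripts of all 9 were present in each library. Levels are log2 values of CPM (counts scaled to a common library total) with a small offset, as deposited, and the sequencing depth is unknown. Of the 9 genes, 2 (Cdh1 and Krt5) had a mean level that reached the lower quartile of all genes, 2.60, on a scale that is not corrected for gene length. Markers specific to olfactory tissue were only partly measured: of 15 listed genes of the olfactory placode and epithelium 10 have a row, and Omp, Cnga2, Stoml3, Gnrh1 and Pitx1 do not. Of the measured ones, Adcy3, an adenylyl cyclase of olfactory cilia that other cells also make, was at 4.03 to 5.08 over the samples and Trpc2, an ion channel of the vomeronasal organ, at 2.55 to 3.96. In the telencephalon itself Emx1, Emx2 and Lhx2 all had values above the lowest value of the table in every sample.

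Polr1a had a mean log2 change of -0.48 in the null samples (SE 0.20, adjusted p = 0.563 in limma) and of -0.08 in the missense samples (SE 0.16, adjusted p = 0.964 in limma).

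Single samples stood apart from the rest. Over the 9 genes, the back-transformed level summed to 136 CPM in missense 3 and to between 28.2 and 63.6 CPM in the other 9 samples. Missense 3 was the highest of the 10 samples for 8 of the 9 genes, all but Grhl3, and it was the highest for 15.9% of all genes. Wild type 1 or wild type 2 was the lowest for 7 of the 9, against 26.0% of all genes. The median range between the lowest and highest sample was 2.55 log2 units for the 9 genes and 0.76 for all genes, and the median spread within groups (residual SD) was 0.63 against 0.22. These comparisons with all genes were not matched for level, and only 2 of the 9 genes had a mean level that reached the lower quartile. Whether genes of like level vary as much was not tested. A difference between groups of 2 or 3 samples is judged against its standard error (SE), which rests on the spread within groups. Exceeding that spread alone does not make it pass.

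**Figure D1:**
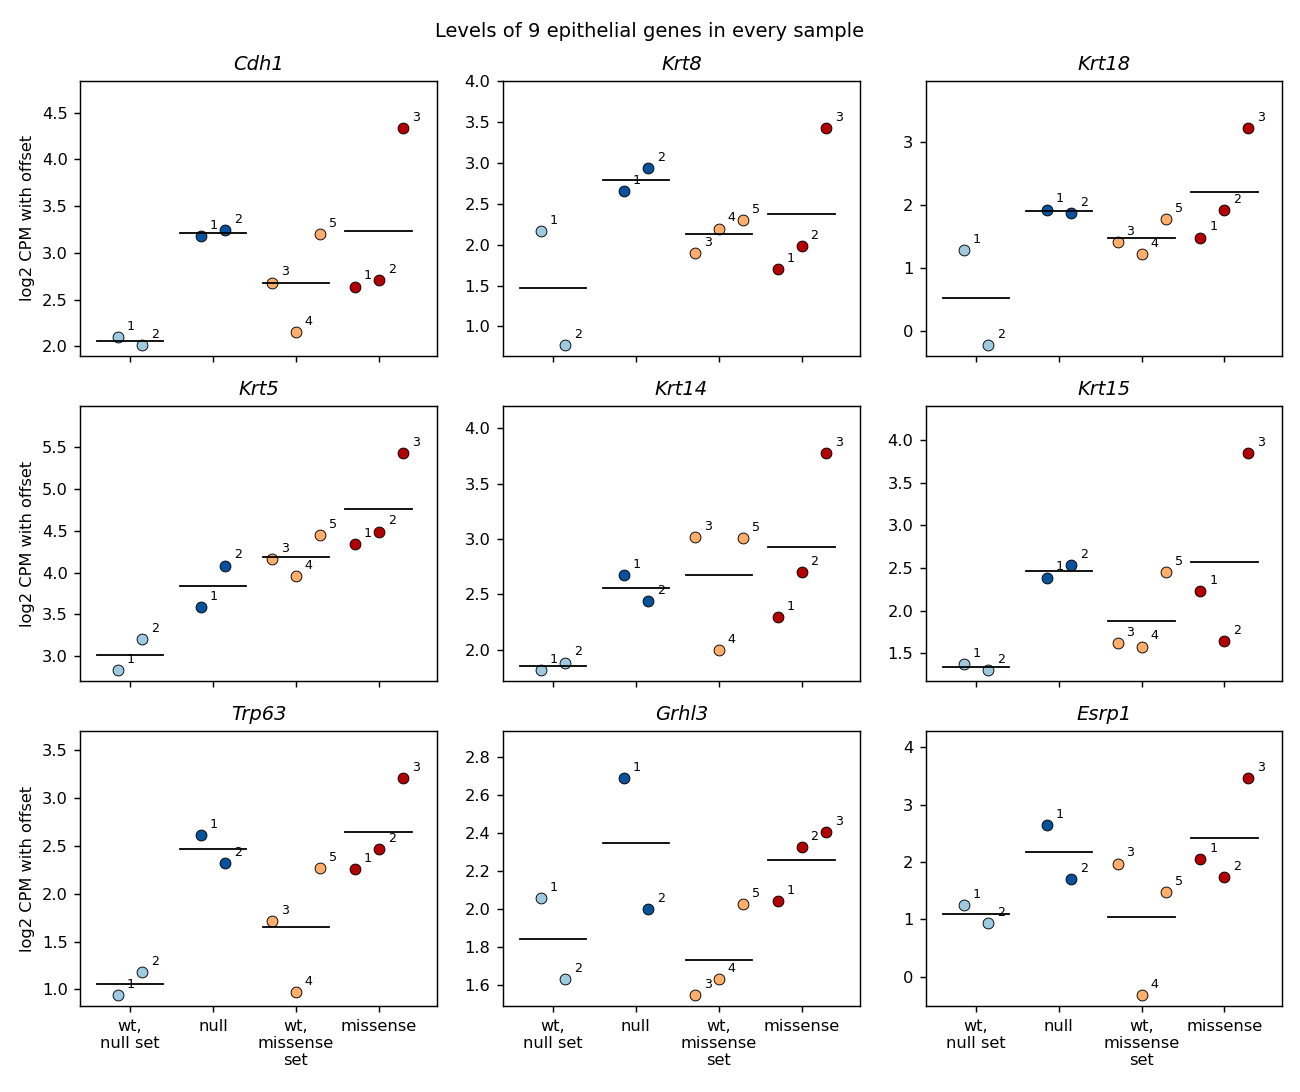
Log2 level (CPM with offset, y axis of each panel, scaled per gene) of the 9 epithelial genes in each sample, grouped by genotype and set on the x axis; points are samples with their replicate numbers, and horizontal lines are group means. Missense 3 lies above every other sample in 8 panels, and wild types 1 and 2 lie below both null samples in all panels but that of Grhl3.

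Each of the 9 epithelial genes had a higher mean in the mutant samples than in the wild types of the same set, for both alleles. The median log2 change over the genes was 1.12 (2.18-fold) in the null comparison and 0.57 (1.48-fold) in the missense comparison, while over all genes it was 0.03 and 0.02. A log2 change above 0 was found for 54.6% of all genes in the null and 54.0% in the missense comparison. In limma 0 of the 9 genes passed an adjusted p of 0.05 in either comparison, where 0.162% of all genes passed in the null and 0.0203% in the missense comparison. At an unadjusted p under 0.05, 5 of 9 were higher in the null samples, against 5.04% of all genes, and 2 of 9 in the missense samples, against 3.20%. Cdh1, Krt18 and Krt8 in the null and Esrp1 in the missense comparison lay close to that cutoff. Cdh1 missed it with quantile normalization, without the variance trend or with a pseudocount of 1, and met it with median-centred samples or sample weights. The 9 genes also varied together, with a median correlation of 0.76 over their 36 pairs, so these counts are not of independent genes. In bulk tissue, more epithelial cells and more RNA per epithelial cell cannot be told apart.

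Promoter sequences were matched by symbol in RefSeq (GRCm38.p6) for 5 of the 9 genes, in windows of 300 bases, of which 250 precede the annotated start and 50 follow it. The letters CACCTG or, on the other strand, CAGGTG, an E-box that the repressors Zeb1, Zeb2 and Snai1 can bind, stood in 4 of the 5 windows (Krt8, Krt18, Krt5 and Grhl3), and in 20.2% of the 32851 mouse promoter windows of that length in RefSeq. The window of Krt14 held none and does not lie at the annotated start of the gene. The letters AACCGGTT, a grainyhead-like motif, stood in 0 of the 5 windows and in 0.146% of all windows. Shown are the windows of Krt8 and Krt18, whose levels varied together, of Krt5, the basal-cell relative of Krt8, and of Grhl3, which had the lowest correlation of all 36 pairs with Krt5 (0.26 over 10 samples). They are written 5′ to 3′ on the strand of each gene, with the E-box in capitals. A match describes the sequence and shows no binding. The windows lie at chr15:102004293-102004592 (minus strand, Krt8), chr15:102027966-102028265 (plus strand, Krt18), chr15:101712856-101713155 (minus strand, Krt5) and chr4:135573583-135573882 (minus strand, Grhl3).
Krt8: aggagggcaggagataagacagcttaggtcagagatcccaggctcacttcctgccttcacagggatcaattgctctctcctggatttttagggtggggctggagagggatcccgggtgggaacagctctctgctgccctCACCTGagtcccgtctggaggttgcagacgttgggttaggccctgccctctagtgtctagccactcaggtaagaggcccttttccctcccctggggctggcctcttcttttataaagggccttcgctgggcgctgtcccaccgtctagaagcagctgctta
Krt18: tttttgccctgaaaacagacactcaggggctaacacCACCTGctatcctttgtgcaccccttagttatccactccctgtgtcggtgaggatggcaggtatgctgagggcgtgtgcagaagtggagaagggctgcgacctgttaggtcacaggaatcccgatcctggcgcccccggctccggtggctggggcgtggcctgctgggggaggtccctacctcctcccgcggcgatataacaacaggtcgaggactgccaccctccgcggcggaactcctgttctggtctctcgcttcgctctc
Krt5: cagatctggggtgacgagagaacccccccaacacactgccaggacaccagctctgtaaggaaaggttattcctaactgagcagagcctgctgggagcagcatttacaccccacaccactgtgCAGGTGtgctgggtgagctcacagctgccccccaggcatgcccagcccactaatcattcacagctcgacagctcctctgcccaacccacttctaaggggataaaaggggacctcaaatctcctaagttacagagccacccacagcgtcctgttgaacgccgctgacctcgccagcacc
Grhl3: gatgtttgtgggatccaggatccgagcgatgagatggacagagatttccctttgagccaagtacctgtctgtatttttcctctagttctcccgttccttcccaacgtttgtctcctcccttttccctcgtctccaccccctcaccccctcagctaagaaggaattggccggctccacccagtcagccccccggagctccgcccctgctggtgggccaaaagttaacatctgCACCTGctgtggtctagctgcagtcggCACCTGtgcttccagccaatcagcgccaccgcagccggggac

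The E-box began 111 bases before the annotated start in Krt8, 128 in Krt5 and 214 in Krt18, and Grhl3 had one that began 19 bases before its start and another just after it.

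Cdh1 encodes E-cadherin, the adhesion molecule of epithelial junctions. Its log2 level was 2.10 and 2.02 in wild types 1 and 2 and 3.18 and 3.25 in null 1 and 2. The null samples were thus above both wild types of their set, with a log2 change of 1.15 (SE 0.52, 95% interval 7.06e-05 to 2.31, adjusted p = 0.599 in limma). Wild types 3 to 5 were at 2.68, 2.16 and 3.20 and missense 1 to 3 at 2.64, 2.71 and 4.34. These groups overlapped, since wild type 5 was above missense 1 and 2, and the log2 change of 0.55 (SE 0.43, adjusted p = 0.924) became -0.01 without missense 3. Wild type 5 and both null samples had almost the same level of Cdh1.

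Krt8 and Krt18 encode the type II and type I keratins of simple epithelia. Krt8 was at 2.17 and 0.77 in wild types 1 and 2 and at 2.65 and 2.94 in the null samples, a log2 change of 1.32 (SE 0.58, adjusted p = 0.581 in limma). Wild type 2 was the low sample here, and the change was 0.62 without it and 2.02 without wild type 1. Krt8 was at 1.90, 2.20 and 2.30 in wild types 3 to 5 and at 1.71, 1.98 and 3.43 in missense 1 to 3. Missense 1 was below all 3 wild types and missense 3 above them, so the log2 change of 0.24 (SE 0.47, adjusted p = 0.962 in limma) was -0.29 without missense 3.

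Krt18 was at 1.29 and -0.21 in wild types 1 and 2 and at 1.93 and 1.87 in null 1 and 2, a log2 change of 1.36 (SE 0.62, adjusted p = 0.599 in limma). As with Krt8, wild type 2 was the low sample, and the change was 0.61 without it and 2.11 without wild type 1. For the missense allele, Krt18 was at 1.42, 1.23 and 1.79 in the wild types and at 1.49, 1.93 and 3.23 in the missense samples. The groups overlapped through missense 1 and wild type 5, and the change was 0.74 (SE 0.50, adjusted p = 0.911 in limma), or 0.23 without missense 3.

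The partner keratins had like patterns over the samples. Across the 10 samples Krt8 and Krt18 had a Pearson correlation of 0.90 (Spearman 0.68), and 0.85 without missense 3, given as a description of samples that also share group and library. The difference Krt8 minus Krt18 ran from 0.06 in missense 2 to 1.06 in null 2. It lay between 0.48 and 1.06 in the 7 wild-type and null samples and between 0.06 and 0.22 in the 3 missense samples, so Krt18 stood closer to Krt8 in each missense sample than in any other sample. That pattern was noticed after the values were seen and was not tested. The genes are immediate neighbours in the RefSeq order of protein-coding genes on chromosome 15.

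**Figure D2:**
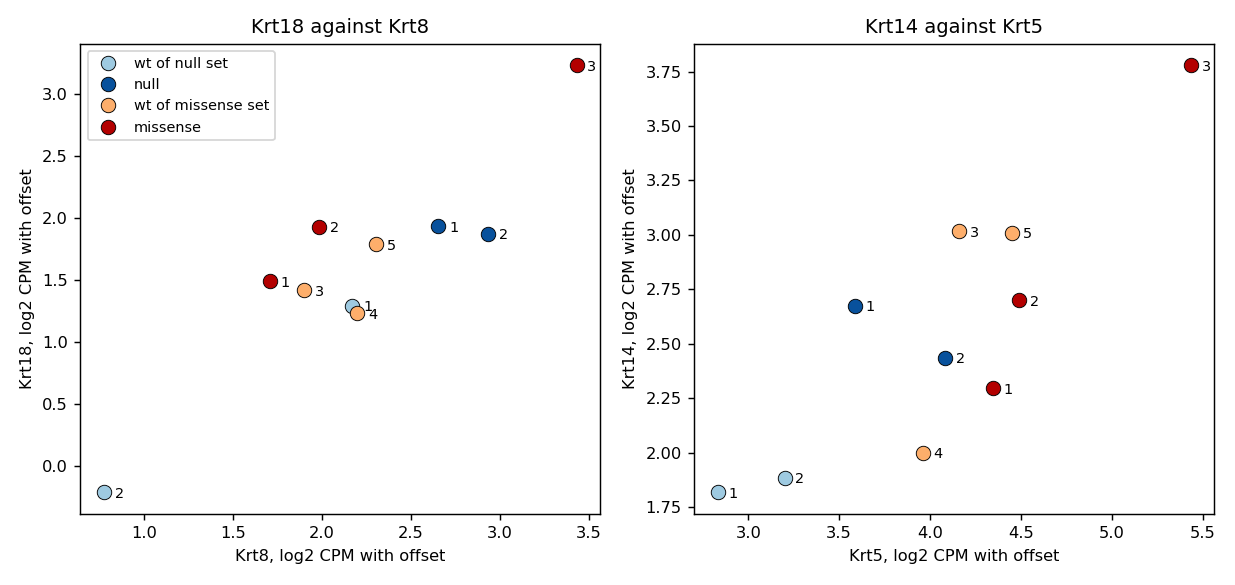
Log2 level (CPM with offset) of Krt18 against Krt8 (left) and of Krt14 against Krt5 (right); each point is a sample, labelled with its replicate number and coloured by genotype and set. Wild type 2 is lowest for Krt8 and Krt18, missense 3 is highest in both panels, and wild types 1 and 2 are lowest in the right panel.

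Krt5 and Krt14 encode the keratin pair of basal cells. Krt5 was at 2.83 and 3.20 in wild types 1 and 2 and at 3.58 and 4.08 in null 1 and 2, a log2 change of 0.82 (SE 0.35, adjusted p = 0.563 in limma). Krt5 was at 4.16, 3.96 and 4.45 in wild types 3 to 5 and at 4.34, 4.49 and 5.43 in the missense samples, a log2 change of 0.57 (SE 0.28, adjusted p = 0.902). Each null sample was above the wild types of its own set, while missense 1 was below wild type 5. The wild types of the 2 sets did not overlap for Krt5, and wild types 3 to 5 had the higher mean, by 1.17 (SE 0.31, unadjusted p = 0.00345, adjusted p = 0.472 in limma). That difference between samples of the same genotype label was larger than either allele's change of Krt5.

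Krt14 was at 1.82 and 1.88 in wild types 1 and 2 and at 2.67 and 2.44 in the null samples, a log2 change of 0.70 (SE 0.49, adjusted p = 0.771 in limma). It was at 3.02, 2.0 and 3.01 in wild types 3 to 5 and at 2.30, 2.70 and 3.78 in missense 1 to 3, a change of 0.25 (SE 0.40, adjusted p = 0.960). Wild types 3 and 5 were above missense 1 and 2, so the change was -0.18 without missense 3, and it was -0.09 without wild type 4. The difference Krt5 minus Krt14 ran from 0.91 in null 1 to 2.05 in missense 1. Over the 10 samples the Pearson correlation of Krt5 and Krt14 was 0.84, and 0.71 without missense 3.

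Krt15 encodes a type I keratin of basal and progenitor cells of the epidermis. It was at 1.37 and 1.30 in wild types 1 and 2 and at 2.39 and 2.53 in null 1 and 2, a log2 change of 1.12 (SE 0.61, adjusted p = 0.692 in limma). Wild types 3 to 5 were at 1.62, 1.58 and 2.45 and missense 1 to 3 at 2.23, 1.64 and 3.85, a change of 0.69 (SE 0.50, adjusted p = 0.916) that was 0.05 without missense 3. Missense 1 and 2 lay within the range of wild types 3 to 5, and missense 3 lay far above it. Of the 36 pairs among the 9 genes, Krt15 and Cdh1 had the highest correlation over the samples, 0.96, and 0.91 without missense 3. The near-identical parts of keratin genes can share reads, and how the submitters' counting split them is not given in the sources used here.

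Trp63 had the smallest p of the 9 genes in both comparisons. It was at 0.94 and 1.18 in wild types 1 and 2 and at 2.61 and 2.32 in null 1 and 2, a log2 change of 1.41 (2.66-fold, SE 0.47, 95% interval 0.38 to 2.44, unadjusted p = 0.0118, adjusted p = 0.412 in limma). Both null samples were above all 5 wild types. For the missense allele, Trp63 was at 1.71, 0.97 and 2.27 in the wild types and at 2.25, 2.47 and 3.21 in the missense samples, a log2 change of 0.99 (SE 0.38, unadjusted p = 0.0246, adjusted p = 0.884 in limma). Missense 1 and wild type 5 had nearly the same level, and without missense 3 the change was 0.71 (SE 0.40, adjusted p = 0.998 in limma).

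Grhl3 encodes a grainyhead-like transcription factor of surface ectoderm that is needed for the skin barrier and for neural tube closure. It varied least of the 9, with a range of 1.14 log2 units. It was at 2.06 and 1.63 in wild types 1 and 2 and at 2.69 and 2.0 in the null samples, which overlapped, for a log2 change of 0.50 (SE 0.37, adjusted p = 0.788 in limma). In the missense set it was at 1.55, 1.63 and 2.03 in the wild types and at 2.04, 2.33 and 2.41 in the missense samples, a change of 0.52 (SE 0.30, adjusted p = 0.902). It was the 1 gene of the 9 whose missense samples were all above the wild types of their set, although missense 1 and wild type 5 were nearly level. Without missense 3 its change was 0.45.

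Esrp1 encodes an RNA-binding protein that directs epithelial splicing patterns. It was at 1.24 and 0.94 in wild types 1 and 2 and at 2.64 and 1.70 in null 1 and 2, a log2 change of 1.08 (SE 0.76, adjusted p = 0.776 in limma). Wild types 3 to 5 were at 1.97, -0.32 and 1.48 and the missense samples at 2.04, 1.74 and 3.47, a change of 1.37 (SE 0.62, unadjusted p = 0.0490, adjusted p = 0.901 in limma). The low level of wild type 4 and the high level of missense 3 set the size of this change, which was 0.69 without wild type 4 and 0.85 without missense 3. Esrp1 had the widest range of the 9, 3.78 log2 units.

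The overlap of the groups was counted over the 9 genes. Both null samples were above both wild types of their set for 8 of 9 genes, all but Grhl3, where 22.9% of all genes had their 2 null samples higher without overlap. Against all 5 wild types the count was 3 of 9 (Krt8, Krt18 and Trp63), with 8.95% of all genes. Against all 5 wild types the median null change of the 9 genes was 0.80, with 1 of 9 (Trp63) higher at an unadjusted p under 0.05 and 5.20% of all genes, and that of Krt5 was 0.11 (SE 0.42). The median missense change against all 5 was 0.91 in place of 0.57, with 4 of 9 (Krt18, Krt5, Trp63 and Esrp1) at that level and 4.67% of all genes. The missense samples cleared all 5 wild types for 0 of 9 genes, with 2.91% of all genes. For the missense allele, 1 of 9 genes did not overlap, with 6.02% of all genes, and the count stayed at 1 without missense 3, with 10.2%. It was 5 without wild type 5 (11.7% of all genes), 4 without missense 1 (13.2%), and 2 without wild type 3 (11.7%) or without missense 2 (12.4%).

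The missense values depended on missense 3. Without it the median log2 change of the 9 genes in the missense comparison was 0.23 in place of 0.57, with 6 of 9 above 0, against 52.5% of all genes in that fit, and 0 of 9 higher at an unadjusted p under 0.05 in limma, against 2.16%. Trp63, Grhl3 and Esrp1, the regulators, had changes of 0.45 to 0.85 without missense 3, and the 6 adhesion and keratin genes had changes of -0.29 to 0.23. The 95% intervals of limma without missense 3 covered 0 for Trp63 (-0.18 to 1.60), Grhl3 (-0.31 to 1.21) and Esrp1 (-0.56 to 2.25). Esrp1 was low in wild type 4, at -0.32. The split into regulators and structural genes was not planned, and these groups were not tested against each other.

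**Figure D3:**
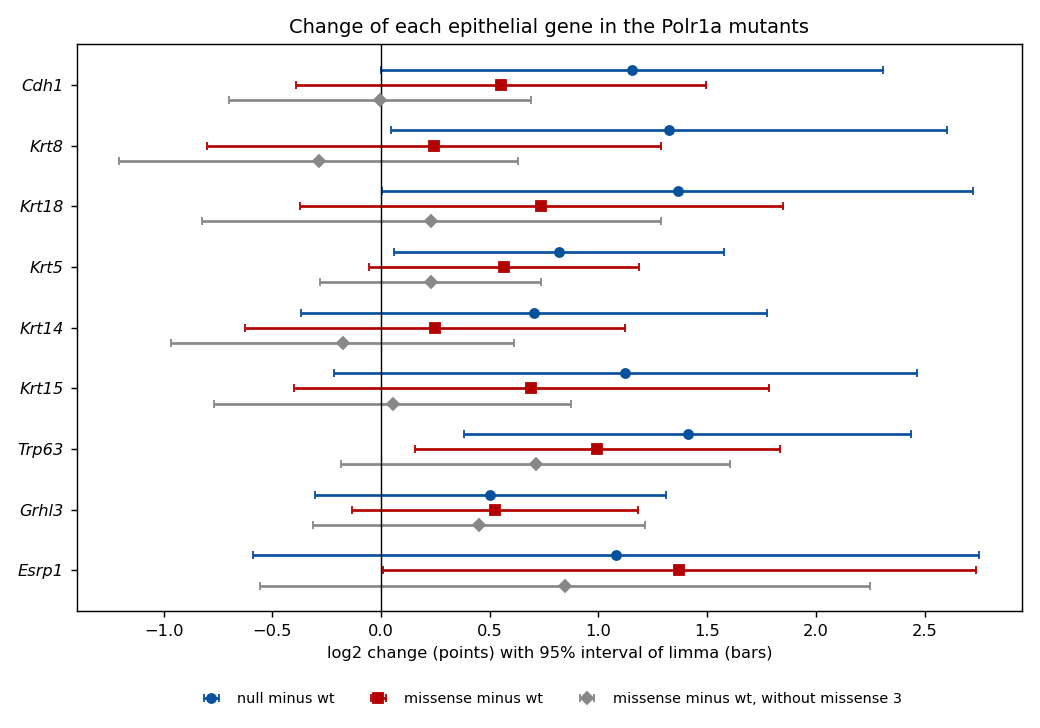
Log2 change (x axis) of each of the 9 epithelial genes (y axis) with 95% intervals of limma, for null minus wild type (circles), missense minus wild type (squares) and the missense comparison without missense 3 (diamonds). The null changes lie between 0.50 and 1.41, and without missense 3 the missense changes of Cdh1, Krt8 and Krt14 are below 0.

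The missense and null changes were compared with each other, and 0 of the 9 genes passed in limma, where 0.0135% of all genes did, and 0 of 9 had an unadjusted p under 0.05, against 4.13%. The widest gap was that of Krt8, whose missense change was lower than its null change by 1.08 on the log2 scale (95% interval -2.73 to 0.57). For Grhl3 the difference was 0.02 (95% interval -1.02 to 1.06). The interval of Grhl3 covers ratios between the alleles of up to 2.09-fold. Wild types 3 to 5 had higher means than wild types 1 and 2 for 7 of the 9 genes, where 53.3% of all genes did, with a median of 0.62 and 4 genes without overlap (Cdh1, Krt5, Krt14 and Krt15), against 13.7% of all genes. None of the 9 passed in limma in that comparison, where 0.0946% of all genes did, and Krt5 was the 1 gene with a higher mean at an unadjusted p under 0.05, against 4.94% of all genes.

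Genes known as regulators of the epithelial state were read beside the 9 genes. Of 11 listed, 9 were measured and 0 passed in limma in either comparison. In each, 8 of 9 had a higher mean, against 54.6% of all genes in the null and 54.0% in the missense comparison. The list holds repressors such as Zeb1, Zeb2 and Snai1 beside grainyhead-like genes, so that count has no single meaning for the epithelial state. Snai1, a repressor of Cdh1, differed by 1.34 log2 units in the null samples (SE 0.48, unadjusted p = 0.0178, adjusted p = 0.456 in limma) and by 0.62 in the missense samples (SE 0.39). Zeb2 had a change of -0.26 in the missense samples (SE 0.11, adjusted p = 0.884 in limma), and Zeb1 was at 7.15 to 7.56 in all 10 samples.

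A wider set of epithelial genes was read beside the 9. Of 45 listed genes of junctions, keratins and epidermal differentiation, 43 were measured, and 0 passed in limma in either comparison. In 9 of the 10 samples at least 1 of the 43 was at the lowest value of the table, with at most 3 in a sample. In the null samples 34 of 43 had a higher mean, with a median log2 change of 0.47, and 6 were higher and 1 was lower with an unadjusted p below 0.05, against 5.04% and 3.28% of all genes. In the missense samples 33 of 43 were higher, with a median of 0.45, or 0.16 without missense 3, and 2 were higher with an unadjusted p below 0.05, which is close to the 3.20% of all genes. Missense 3 was the highest of the 10 samples for 28 of the 43 genes, and the other 15 were highest elsewhere, 4 of them in wild type 2. Wild types 1 and 2 had median deviations of -0.42 and -0.67 from the gene means, where missense 3 had 1.04 and the other 7 samples lay between -0.14 and 0.19.

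Ppl encodes periplakin, a protein that links desmosomes to keratin filaments. It was at 0.92 and -0.50 in wild types 1 and 2 and at 2.06 and 2.25 in the null samples, a log2 change of 1.95 (SE 0.51, unadjusted p = 0.00312, adjusted p = 0.250 in limma). In the missense set it was at 1.26, 0.96 and 1.53 in the wild types and at 2.06, 2.22 and 2.98 in the missense samples, a change of 1.17 (SE 0.42, adjusted p = 0.884 in limma). Neither comparison of Ppl had overlapping groups, and both null and all 3 missense samples were above all 5 wild types. Ppl was named because it had the smallest p of the 43 genes in both comparisons, so its separation follows in part from that choice. Mutants higher without overlap were found for 22.9% of all genes in the null and 6.02% in the missense comparison. Against all 5 wild types these shares were 8.95% and 2.91%. Perp and Sfn, which are p53 targets as well as epithelial genes, had changes of 0.54 (SE 0.25) and 0.52 (SE 0.23) in the missense samples, with limma adjusted p of 0.902 and 0.893. Itgb4, an integrin of hemidesmosomes, differed the other way in the null samples, with a log2 change of -2.15 (SE 0.62, adjusted p = 0.323 in limma). It was at 3.37 and 4.39 in wild types 1 and 2 and between 0.99 and 2.80 in the other 8 samples, wild types included.

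Genes of the olfactory placode and epithelium were read separately. In the null samples 8 of 10 measured genes were higher (median 0.46), and in the missense samples 7 of 10 (median 0.14, or -0.16 without missense 3). At an unadjusted p under 0.05 in limma, 3 were higher and 1 was lower in the null samples, against 5.04% and 3.28% of all genes. In the missense samples 0 were higher and 3 lower, against 3.20% and 2.33% of all genes. Those 3 were Dlx5, with a log2 change of -0.37 (SE 0.14), Trpc2, with -0.65 (SE 0.27), and Adcy3, with -0.52 (SE 0.22), and their adjusted p in limma was 0.884 for Dlx5 and Trpc2 and 0.893 for Adcy3. Dlx5 fell in the null samples, with a log2 change of -1.16 (SE 0.17, adjusted p = 0.0277 in limma), the 1 gene of the list that passed, and it is also a gene of the ventral telencephalon. Six4, a placode transcription factor, differed by 0.69 log2 units (SE 0.23, adjusted p = 0.412 in limma).

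Markers of other tissues around the telencephalon were summed in the same samples, in CPM. Choroid plexus epithelium, which also makes Krt8 and Krt18, summed to 160 to 196 in wild types 1 and 2, 264 to 356 in the null samples, 244 to 284 in wild types 3 to 5 and 270 to 348 in the missense samples. Of its 16 genes 15 had a higher mean in the null samples (median 0.89), 10 of them at an unadjusted p under 0.05 (5.04% of all genes), and 12 in the missense samples (median 0.23), 3 of them at that level (3.20% of all genes). Mesenchyme and meninges genes summed to 1961 to 2284 in wild types 1 and 2 and 2853 to 3831 in the null samples, and to 2053 to 3366 and 2599 to 3520 in the missense set. All 17 of these genes had a higher mean in the null samples (median 0.60) and 15 of 17 in the missense samples (median 0.34, or 0.16 without missense 3). At an unadjusted p under 0.05 in limma, 8 of 17 were higher in the null samples (5.04% of all genes) and 2 of 17 in the missense samples (3.20%).

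Markers of blood-borne, vascular and neural cells were read in the same way. Microglia and macrophage genes summed to 60.0 to 64.7 in wild types 1 and 2, 131 to 133 in the null samples, 76.1 to 94.6 in wild types 3 to 5 and 105 to 125 in the missense samples, with 10 of 10 and 7 of 10 genes higher. Their median log2 change was 1.13 in the null and 0.41 in the missense samples. At an unadjusted p under 0.05 in limma, 8 of 10 were higher in the null samples (5.04% of all genes) and 5 of 10 in the missense samples (3.20%). Endothelial genes were higher for 10 of 10 in the null and 4 of 10 in the missense samples, and erythroid genes for 9 of 10 and 7 of 10. A higher mean was found for 54.6% and 54.0% of all genes. The median log2 changes were 0.31 and -0.02 for endothelial and 0.33 and 0.17 for erythroid genes. At an unadjusted p under 0.05 in limma, 1 endothelial and 2 erythroid genes were higher in the null samples (5.04% of all genes). In the missense samples 0 of either list were (3.20%). Telencephalon and neural genes summed to 6273 to 6316 in wild types 1 and 2 and to 5424 to 5450 in the null samples. In the missense set they summed to 6166 to 6609 in the wild types and 5659 to 6378 in the missense samples. Of the 15 genes, 12 and 11 were lower. At an unadjusted p under 0.05 in limma, 6 were lower in the null samples (3.28% of all genes) and 3 in the missense samples (2.33%). Dlx2 was the 1 gene of the list that passed, in the null samples (log2 change -1.68, adjusted p = 0.0128 in limma). None of the markers of choroid plexus, mesenchyme, endothelium, erythroid or neural lists was at the lowest value of the table in any sample, and 1 microglial gene was at it in 1 sample. The part of these tissues in the epithelial values was not tested.

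**Figure D4:**
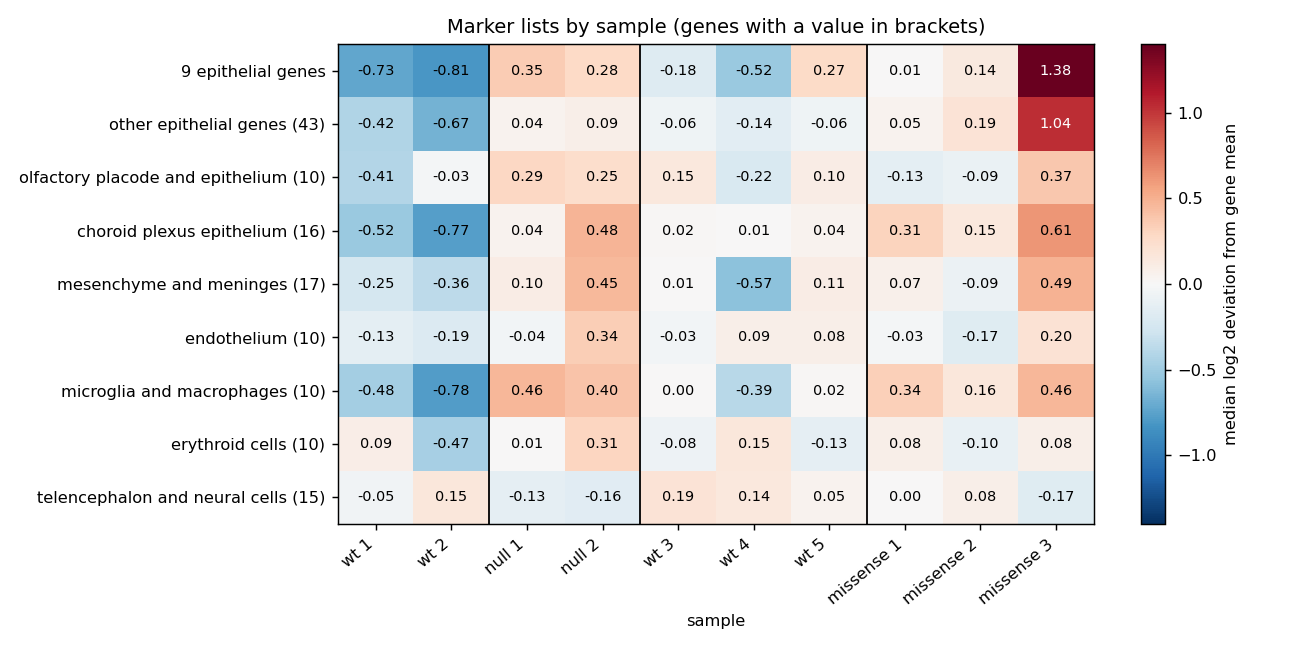
Median log2 deviation from each gene's mean over the 10 samples (colour and printed value) for the 9 epithelial genes and 8 other marker lists (rows, with the number of measured genes) in each sample (columns, grouped by genotype and set). The epithelial rows reach 1.38 and 1.04 in missense 3, where the other rows lie between -0.17 and 0.61.

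The genes whose levels ran most like the epithelial genes were taken from 10721 genes. These had a mean level that reached the lower quartile, and they left out the 9 genes, predicted gene models and pseudogenes. Nearest to the mean standardized level of Cdh1, Krt8 and Krt18 were Ephb4, Ptk7, Aldh9a1, Igf2 and Hexa, with Pearson correlations of 0.98 to 0.94 over 10 samples and 0.95 to 0.90 without missense 3. Nearest to that of Krt5, Krt14, Krt15 and Trp63 were Kdelr3, Aldh9a1, Rbms3, Gjb2 and Ntan1, with correlations of 0.96 to 0.95, and 0.96 to 0.91 without missense 3. All 9 of these genes were highest in missense 3, and their lowest sample was wild type 1 or wild type 2. Gjb2, a gap junction gene of epithelia and meninges, ran from 3.32 in wild type 2 to 4.82 in missense 3. Since the best matches were chosen among all those genes over 10 samples, these values are a description only.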

How the data were processed

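RNA sequencing values of 10 samples were taken from 1 table that the authors deposited, in log2 units, whose name says that the values had been filtered and normalized. The unit was read from the values: back-transformed, each sample sums to nearly the same total (1000571 to 1000994) and all share a lowest value of -3.16, as for log2 CPM with an offset. The build is GRCm39 per the submitters' processing notes. The read aligner, the counting tool and the gene models used were not given in the sources used here. Of 14797 rows, 1 without a name was left out. Depth per sample is unknown, so no counting interval is given.

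A model with 4 groups (genotype within title number) was fitted to all 14796 genes in limma (3.58.1; R 4.3.3) using a variance trend, 6 residual and 4.83 prior degrees of freedom, 2-sided tests and Benjamini-Hochberg adjustment. CPM values are back-transformed levels minus the offset. The fit was tested on simulated data. Figures used Python 3.11.15 and matplotlib 3.10.9. Members and lists were chosen with earlier results of these data known. Named genes are all members, Polr1a, up to 3 genes of smallest p per list and comparison, and the 5 genes nearest in pattern to simple and basal epithelial genes; the text names those that bear on the epithelial genes. Alternatives were no title-number term, other scalings, filters, pseudocount and variance settings, the samples of 1 title number only, and each sample left out.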

Additional observations from a re-analysis of the deposited data

Results flagged for a closer look

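Among the 5 wild-type samples, 3 of the 9 epithelial genes had a sample that stood apart, with a gap to its nearest neighbour of more than 0.71 of the group's whole range. Chance alone flags about 5% of such groups, and the 9 genes vary together. Krt8 was at 0.77 in wild type 2, where the next lowest wild type was at 1.90. Its partner Krt18 was at -0.21 in the same sample, where the next lowest was at 1.23. Krt15 was at 2.45 in wild type 5, where the next highest wild type was at 1.62.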

How the results depend on the processing

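No epithelial gene passed the limma threshold under any alternative; the lowest adjusted p was 0.295 in the null and 0.548 in the missense comparison. Counted once per gene and alternative, 173 of 173 null changes kept their direction, and 169 of 173 missense changes did. Many of these could not turn, since leaving out a sample of 1 set or altering the variance settings leaves the estimate of the other set, or both, as it was. The median null change of the 9 genes was 0.80 without the title-number term, 0.92 with quantile normalization, 0.99 over the 2 genes at or above the 25th percentile, 0.90 with a pseudocount of 1, and 0.93 to 1.20 when samples were left out in turn. All genes called in the null comparison numbered 24, against 59 without the title-number term, 6 without the variance trend, 0 in limma with the title number of the null samples alone (1101 at an unadjusted p under 0.05) and 2 to 23 with a sample left out. The missense count of 3 was 2 to 10 with a sample left out. With a sample left out, missense changes ran from -0.00543 to 0.844 for Cdh1, -0.18 to 0.56 for Krt14 and -0.29 to 0.58 for Krt8. The difference between alleles turned to 0.0172 for Cdh1, 0.37 for Krt14, 0.11 for Krt15, 0.31 for Krt18, 0.92 for Krt5, 0.18 for Trp63 and -0.0871 for Grhl3 without the title-number term, and to -0.0768 for Esrp1 and -0.0131 for Grhl3 with sample weights. With a sample left out it ran from -0.39 to 0.76 for Esrp1, -0.32 to 0.37 for Grhl3, -1.07 to 0.0342 for Krt15 and -1.38 to 0.12 for Krt18. The difference between wild types of Esrp1 was 0.0367 with a pseudocount of 1 and 0.24 with sample weights, and with a sample left out it ran from -0.51 to 0.63 for Esrp1, -0.32 to 0.10 for Grhl3 and -0.0377 to 1.36 for Krt8. The cause was not tested. No paired analysis was possible because the labels give no numbers that pair samples. Depth is unknown, so how it limits the low genes cannot be given.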

Other observations

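Cdh3 encodes P-cadherin of basal epithelial cells and is the neighbour of Cdh1 in the RefSeq order of protein-coding genes on chromosome 8. It was at 3.12 and 2.87 in wild types 1 and 2, 3.72 and 3.62 in null 1 and 2, 3.69, 3.14 and 3.605 in wild types 3 to 5 and 3.48, 3.83 and 4.30 in missense 1 to 3. Dsp, which encodes desmoplakin, was highest in missense 3 as well, at 5.21, against 3.43 to 4.44 in the other samples. Krt17, a keratin of periderm and skin appendages, ran from -1.68 in wild type 2 to 1.70 in missense 3. Krt19, a type I keratin of simple epithelia, did not separate the null set, with wild types 1 and 2 at 0.42 and 1.49 and null 1 and 2 at 0.20 and 1.39. These 4 genes were chosen after their values were seen.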
